A study of Mus musculus with 26 samples.

Results

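A set of 9 genes, out of 55291 listed in each count table, was followed across all groups of the series: Klhdc7a, Aoah and Elob, which were higher in ESC-ΔZF1 than in ESC-WT, and Vsir, Myh6, Hpcal4, Smoc1, Arrb1 and Pkp2, which were lower. The genes were selected on their log2 fold change and p-value between these groups of mouse ESCs, as being among the largest or clearest changes and with no fixed threshold, so the ESC-ΔZF1 values below describe the choice and carry no test. RNA-seq was done on the CTCF rescue lines and on the RNA truncation lines, in 26 libraries of 10 groups. The rescue lines came from E14 (ES-E14TG2a) mouse ESCs. Both alleles of their endogenous Ctcf carry a degron, a tag by which 5-Ph-IAA and the OsTIR1(F74G) protein from the Rosa26 locus remove the protein, and a Hb9 reporter is present. From the Tigre locus, doxycycline turns on a tagged CTCF, either WT or ΔZF1, which lacks part of zinc finger 1. The rescue groups, ESC-WT and ESC-ΔZF1 and, after differentiation, NPC-WT and NPC-ΔZF1, all received 1 µM 5-Ph-IAA and 1 µg/ml doxycycline for 24 h, and each had 2 libraries. The NPC groups, neural progenitor cultures, were taken on day 2 of differentiation. Each rescue line was 1 clone, so the CTCF form and the clone cannot be told apart. The truncation series held untreated WT E14 cells and their derivatives Podxl pA and Grb10 pA, each as ESCs and as NPCs of day 2, with 3 libraries per group. In Podxl pA and Grb10 pA, an eGFP cassette with a polyadenylation signal after the opening coding exon cuts short the RNA of that gene on both alleles. These lines were also grown from single cells, and the number of clones sequenced is not given. The truncation and the clone therefore cannot be told apart.

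CTCF is a zinc finger protein that binds DNA and halts cohesin as it extrudes chromatin loops. Zinc finger 1 has been tied to its binding of RNA. Loops held by CTCF can bring enhancers to promoters or keep them apart, and the expression of a gene can therefore rise or fall when CTCF is altered. The 9 genes have no common pathway. They encode a kelch-repeat protein (Klhdc7a), an enzyme that removes acyl chains from lipopolysaccharide (Aoah), a subunit of elongin and of cullin ubiquitin ligases (Elob), an inhibitory immune checkpoint protein (Vsir, or VISTA), the alpha heavy chain of cardiac myosin (Myh6), a neuronal calcium sensor (Hpcal4), a secreted matrix protein that antagonises BMP signalling (Smoc1), an arrestin that uncouples and traffics G protein-coupled receptors (Arrb1) and a protein of the desmosome plaque (Pkp2).

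All 9 are protein-coding genes in GENCODE M21 (GRCm38, the assembly of mm10), and they lie on 8 chromosomes. Klhdc7a is at chr4:139960220-139968026 and Hpcal4 at chr4:123183227-123194701, the only pair on a shared chromosome. Aoah is at chr13:20794113-21036617, Elob at chr17:23824738-23829136, Vsir at chr10:60346851-60372684, Myh6 at chr14:54941921-54966927, Smoc1 at chr12:81026808-81186414, Arrb1 at chr7:99535466-99606771 and Pkp2 at chr16:16213318-16272712. Because strand was not used in counting, reads of overlapping genes are not separable. Vsir lies within Cdh23, which is on the opposite strand and had 5 to 28 counts per rescue library. Elob overlaps Srrm2 by 4 bases on the opposite strand. Srrm2 had 4841 to 32849 counts per rescue library, and its part in the counts of Elob was not tested. Elob also has a close copy, Elobl, with 1 to 14 counts in the rescue lines. Myh6 has a near-identical neighbour, Myh7, whose reads may be shared with it.

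The promoters of 6 of the 9 genes (Klhdc7a, Aoah, Elob, Vsir, Myh6 and Hpcal4) were found in RefSeq on GRCm38.p6. Each window is 300 bases long and ends shortly after the RefSeq start. Those of Klhdc7a and Vsir are shown because these genes had the largest ESC rise and the largest ESC fall of the 9, and that of Myh6 because it alone matched the CTCF core motif with up to 1 mismatch. Bases in capitals are matches to the CTCF core motif with up to 1 mismatch, or to TATAAA, on either strand. The windows are chr4:139967977-139968276 (minus strand), chr10:60346601-60346900 (plus strand) and chr14:54966558-54966857 (minus strand).
Klhdc7a: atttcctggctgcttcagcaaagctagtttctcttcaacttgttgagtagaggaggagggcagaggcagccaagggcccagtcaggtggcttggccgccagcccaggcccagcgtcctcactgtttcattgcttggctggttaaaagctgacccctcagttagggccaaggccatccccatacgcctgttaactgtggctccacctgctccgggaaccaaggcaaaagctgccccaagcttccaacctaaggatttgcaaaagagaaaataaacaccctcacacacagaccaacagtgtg
Vsir: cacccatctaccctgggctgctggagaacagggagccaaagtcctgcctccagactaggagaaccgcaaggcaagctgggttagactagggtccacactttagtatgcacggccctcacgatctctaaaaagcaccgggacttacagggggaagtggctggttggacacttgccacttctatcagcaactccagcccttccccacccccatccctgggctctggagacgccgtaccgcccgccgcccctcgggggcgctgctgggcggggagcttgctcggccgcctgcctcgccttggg
Myh6: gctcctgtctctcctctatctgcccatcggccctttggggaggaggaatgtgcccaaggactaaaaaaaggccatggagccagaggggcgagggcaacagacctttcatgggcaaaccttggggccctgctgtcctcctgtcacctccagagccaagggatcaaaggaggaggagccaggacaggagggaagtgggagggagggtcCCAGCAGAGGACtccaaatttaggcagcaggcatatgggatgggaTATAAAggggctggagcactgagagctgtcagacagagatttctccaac

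No window of the 6 held an exact match to the CTCF core motif, which 0.557% of 32851 RefSeq promoters of this length held. The near match of Myh6 starts 44 bases before the RefSeq start, and 4.33% of promoters held such a match. Myh6 was also the only gene of the 6 with TATAAA, found in 13.6% of promoters. Its match begins 1 base after the RefSeq start, not before it. The RefSeq starts of Myh6, Hpcal4 and Elob lie inside their longer GENCODE genes. GGGCGG was found 4 times before the start of Elob, 3 times in Vsir and 2 times in Hpcal4, and 35.7% of promoters held it on either strand. In base composition the windows differed widely, from 43.0% GC and 3 CpG in Aoah to 69.7% GC and 34 CpG in Elob, where the median promoter had 52.7% GC and 7 CpG. Genes that were higher in ESC-ΔZF1 held both the extremes of GC content among the 6.

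A rescue library held 6425179 to 28730435 counts on genes, and a library of the truncation series 1907505 to 8845087. Levels are given as CPM, counts scaled to a common depth by the TMM-adjusted library total, and the precision of low genes is set by their counts. The RNA of Ctcf, which includes the transgene, lay at 562 to 577 CPM in ESC-WT, 831 to 860 in ESC-ΔZF1, 449 to 474 in NPC-WT and 785 to 798 in NPC-ΔZF1, so the amount of Ctcf RNA moved with the form of CTCF, and its part in the results was not tested. In E14 ESCs Ctcf stood at 229 to 233 CPM. The targeted RNAs were low in their lines: Podxl lay at 232 to 259 CPM in E14 NPCs and 20.8 to 24.3 in NPC Podxl pA, and Grb10 at 769 to 814 CPM in E14 NPCs and 52.2 to 59.4 in NPC Grb10 pA. Of 10 markers of pluripotency, 9 were lower and none higher in E14 NPCs than in E14 ESCs. The summed level of 10 neural progenitor markers was 31.5 to 37.3 CPM in E14 ESCs and 123 to 131 in E14 NPCs, and Fabp7 was at 0 in the ESCs, and in the rescue lines it was 39.9 to 54.3 CPM in ESCs and 114 to 156 in NPCs, so neural markers were higher in NPCs but modest in level. Fabp7 was at 0 in NPC-WT and NPC-ΔZF1 too, and Hes5 in NPC-WT. In bulk RNA, fewer expressing cells and less RNA per cell cannot be told apart.

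**Figure D1:**
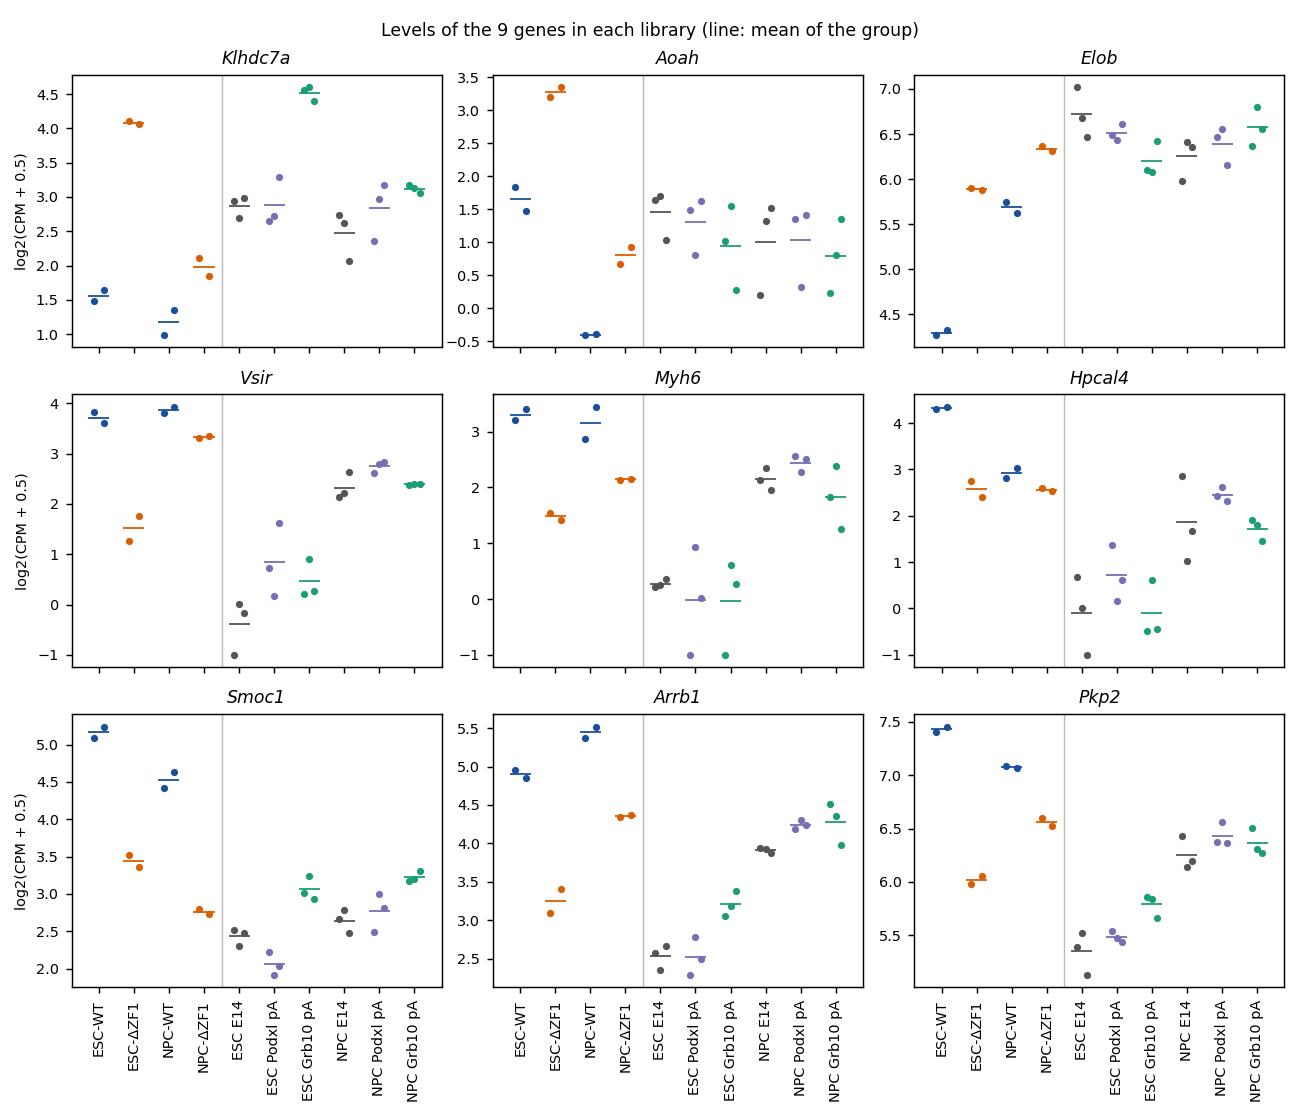
Level of each of the 9 genes in all 26 libraries as log2(CPM + 0.5), with one point per library and a line at the mean of the group. Blue marks WT rescue, orange ΔZF1, grey E14, purple Podxl pA and green Grb10 pA, and the vertical line parts the rescue lines from the truncation series, which were normalized separately. ESC-WT does not overlap ESC-ΔZF1 in any panel, as in 57.4% of all genes tested, and Vsir, Myh6 and Hpcal4 lie lowest in the untreated ESCs.

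Among the genes higher in ESC-ΔZF1, Klhdc7a had the largest change of the 9. Klhdc7a was at 2.29 and 2.61 CPM in ESC-WT and at 16.7 and 16.2 in ESC-ΔZF1, which is a log2 fold change of 2.72 (SE 0.23), which ranked 9 by size among 214 genes called higher. A gene was called where edgeR's quasi-likelihood test gave a Benjamini-Hochberg adjusted p-value no higher than 0.05 and the log2 fold change was 0.5 or more in size, and 1.29% of 16641 genes were called higher in this contrast and 2.33% lower. In NPCs Klhdc7a was low in both lines, at 1.48 and 2.06 CPM in NPC-WT and 3.81 and 3.09 in NPC-ΔZF1. The NPC groups did not overlap, which with 2 libraries against 2 was so for 60.9% of all genes tested, and the log2 fold change of 1.01 (SE 0.24, adjusted p = 0.0153) was 37.2% of the ESC value. E14 cells had 7.20, 5.99 and 7.38 CPM in ESCs and 6.15, 5.65 and 3.71 in NPCs, and these overlapped. The E14 ESCs lay between ESC-WT and ESC-ΔZF1. The highest level of Klhdc7a in the series was in ESC Grb10 pA, at 23.2, 23.8 and 20.6 CPM, above both ESC-ΔZF1 libraries.

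Aoah, whose product inactivates bacterial lipopolysaccharide and is best known from macrophages, was a low gene in all groups. It had 3.06 and 2.28 CPM in ESC-WT and 8.74 and 9.73 in ESC-ΔZF1, which is a log2 fold change of 1.84 (SE 0.25). In NPC-WT Aoah was at 0.254 and 0.258 CPM, which rests on 9 counts over both libraries, and in NPC-ΔZF1 at 1.09 and 1.40, from 69 counts. The log2 fold change of 2.25 in NPCs (SE 0.40, adjusted p = 0.00421) was 122% of that in ESCs, the highest share among the 9, while the level in NPC-ΔZF1 stayed below that of ESC-WT. E14 ESCs had 2.62, 2.74 and 1.55 CPM, which overlap ESC-WT, and E14 NPCs 0.647, 1.99 and 2.36 CPM. Of 10 markers of blood cells and macrophages, 2, Ptprc and Aif1, were at 0 in both ESC-WT and ESC-ΔZF1, and the summed level of the 10 was 7.34 to 9.20 CPM in ESC-WT and 8.45 to 8.92 in ESC-ΔZF1.

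Elob was the most abundant of the 9 genes per kb of exon in 5 of the 6 groups of E14 and rescue cells, with ESC-WT as the exception. Its product, elongin B, binds elongin C in the elongin complex and in the substrate receptors of cullin ubiquitin ligases. ESC-WT had 18.8 and 19.5 CPM, against 59.3 and 58.4 in ESC-ΔZF1, which is a log2 fold change of 1.61 (SE 0.12). NPC-WT had 53.3 and 49.0 CPM and NPC-ΔZF1 82.0 and 78.9, a log2 fold change of 0.65 (SE 0.11, adjusted p = 0.00272). All 18 libraries of the truncation series lay higher than ESC-WT and NPC-WT, from 62.8 CPM in an E14 NPC library to 130 CPM in an E14 ESC library. E14 ESCs spread from 88.1 to 130 CPM, and 6 of the 10 groups of Elob could not be ordered against the next group below because their libraries overlapped.

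Of the genes lower in ESC-ΔZF1, Vsir had the largest change. VISTA, its product, is a B7 family protein that restrains T cells and is also found outside the immune system. Vsir had 13.8 and 11.7 CPM in ESC-WT and 1.91 and 2.90 in ESC-ΔZF1, which is a log2 fold change of -2.37 (SE 0.22) that ranked 10 among 387 genes called lower. In NPC-WT it was at 13.5 and 14.8 CPM and in NPC-ΔZF1 at 9.41 and 9.71. The NPC groups did not overlap, but the difference of -0.56 (SE 0.18, adjusted p = 0.0506) narrowly missed the threshold, and it was 23.5% of the ESC value. It passed without the filter on low counts (adjusted p = 0.0432), with TMM factors computed without chromosome 11 (adjusted p = 0.0360) and without either NPC-WT library (adjusted p = 0.00206 without replicate 1 and 0.00927 without replicate 2). E14 ESCs had 0, 0.514 and 0.388 CPM of Vsir, from 4 counts in all, and E14 NPCs had 3.88, 4.13 and 5.73.

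Myh6, the main myosin heavy chain of the adult mouse heart, lay at 8.71 and 10.1 CPM in ESC-WT and 2.42 and 2.16 in ESC-ΔZF1, which is a log2 fold change of -2.05 (SE 0.26). NPC-WT had 6.78 and 10.4 CPM, and both NPC-ΔZF1 libraries were close together at 3.91 and 3.94. The NPC difference was -1.10 (SE 0.23, adjusted p = 0.00826). In E14, Myh6 was at 0.654, 0.685 and 0.777 CPM in ESCs, from 9 counts in all, and at 3.88, 4.58 and 3.37 in NPCs. Myh7, the beta heavy chain, had between 6 and 42 counts per rescue library and 1.83 and 2.48 CPM in ESC-WT and 0.881 and 0.405 in ESC-ΔZF1. How far the counting parted Myh6 from Myh7 was not tested.

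Hpcal4, a visinin-like calcium sensor of neurons, showed the smallest NPC change relative to its ESC change. ESC-WT had 19.3 and 19.9 CPM and ESC-ΔZF1 6.24 and 4.80, a log2 fold change of -1.83 (SE 0.19). In NPCs the levels were close, at 6.48 and 7.65 CPM in NPC-WT and 5.57 and 5.26 in NPC-ΔZF1. The difference of -0.37 (SE 0.18, adjusted p = 0.176) did not pass the test and was 20.2% of the ESC value. On leaving out a library, it ran from -0.50 to -0.28. E14 ESCs were at 1.09, 0.514 and 0 CPM, and E14 NPCs were uneven, at 6.80, 1.53 and 2.70.

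For Smoc1 the changes in NPCs and in ESCs were of like size. Its product is a calcium-binding matrix protein related to SPARC. ESC-WT had 33.5 and 37.3 CPM, and ESC-ΔZF1 10.9 and 9.79, or a log2 fold change of -1.78 (SE 0.15). NPC-WT had 20.9 and 24.4 CPM, and NPC-ΔZF1 6.45 and 6.14, a log2 fold change of -1.84 (SE 0.15, adjusted p = 9.62e-05), which was the smallest p-value of the 9 in this contrast. The NPC value was 104% of the ESC value. Every library of the truncation series was at or below 9.40 CPM, with 5.23, 4.45 and 5.05 in E14 ESCs and 5.83, 6.42 and 5.06 in E14 NPCs, and NPC-ΔZF1 lay at the upper end of E14 NPCs.

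Arrb1 encodes beta-arrestin 1, which ends the coupling of activated receptors to G proteins. It stood at 30.4 and 28.3 CPM in ESC-WT and 8.005 and 10.1 in ESC-ΔZF1, which is a log2 fold change of -1.69 (SE 0.15). Both NPC groups were higher than their ESC counterparts, with 40.9 and 45.4 CPM in NPC-WT and 19.8 and 20.2 in NPC-ΔZF1. The NPC difference was -1.11 (SE 0.14, adjusted p = 0.000815), or 65.5% of the ESC value. E14 ESCs had 5.45, 4.62 and 5.82 CPM and E14 NPCs 14.9, 14.7 and 14.2. In ESCs and in NPCs alike, all WT rescue libraries were above all ΔZF1 libraries, and these were above all E14 libraries.

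Pkp2, which links desmosomal cadherins to intermediate filaments, was among the most abundant of the 9. It had 169 and 175 CPM in ESC-WT and 62.8 and 66.0 in ESC-ΔZF1, which is a log2 fold change of -1.42 (SE 0.10), the smallest change of the 9 in size but the gene with the smallest p-value of all genes in that contrast. In NPCs it was at 135 and 134 CPM in NPC-WT and at 96.1 and 91.4 in NPC-ΔZF1, a difference of -0.52 (SE 0.10, adjusted p = 0.00502). E14 ESCs had 41.4, 45.5 and 34.6 CPM and E14 NPCs 85.8, 70.1 and 72.8. The order of groups in Pkp2 ran from ESC-WT through NPC-WT and the other NPC groups to ESC-ΔZF1 and the untreated ESCs, and among the NPC groups below NPC-WT each overlapped the next, as did ESC Podxl pA and ESC E14.

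Whether the ESC changes persisted in NPCs was asked with NPC-ΔZF1 against NPC-WT. This contrast compares none of the ESC libraries, but it compares the same pair of clones. The spread was estimated from all rescue libraries together, so the ESC libraries that chose the genes also entered the NPC p-values. The test is thus not independent of the choice, and calls lost in a fit of only the NPC groups are given below. All 9 genes had the same sign in NPCs as in ESCs, and 7 of 9 had a smaller change. Neither share was computed over all genes. The genes were chosen for large or clear ESC changes, so smaller NPC values can come from the choice itself, and this was not tested. Of the 9, 7 were called in NPCs: Aoah, Klhdc7a and Elob were higher and Smoc1, Arrb1, Myh6 and Pkp2 lower, where 7.19% of all genes were called higher and 10.5% lower. The libraries of NPC-WT and NPC-ΔZF1 did not overlap in any of the 9, beside 60.9% of all genes for which this held. The median log2 fold change of the 9 was -0.52, and that of all genes -0.00262. DESeq2 also called 7. The difference between the ESC and NPC effects was largest for Vsir, at 1.82 on the log2 scale (NPC minus ESC), then Klhdc7a at -1.71, and smallest for Smoc1 at -0.06, and because it uses the ESC libraries it was not tested.

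Smoc1, Arrb1 and Aoah were called under each alternative setting in which they were tested, but Aoah, with 3 counts in a library, was not tested where at least 10 counts were required. The calls of Pkp2, Klhdc7a and Myh6 were lost when only NPC-WT and NPC-ΔZF1 were fitted (adjusted p = 0.0615, 0.0950 and 0.0531). They were also lost without NPC-ΔZF1 replicate 1 (adjusted p = 0.0583, 0.136 and 0.0729), which left 3 of 9 called with the loss of Elob (adjusted p = 0.0541), and without NPC-ΔZF1 replicate 2 (adjusted p = 0.0934, 0.0511 and 0.0739), which left 4. Over all genes, far more were called without NPC-WT replicate 1 and far fewer without either NPC-ΔZF1 library. The number of the 9 called in such fits is therefore not read as a result about them. A fit that leaves out a library leaves 1 in that group, which is then assumed to vary like the other groups, so the calls gained or lost in this way rest on their spread.

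**Figure D2:**
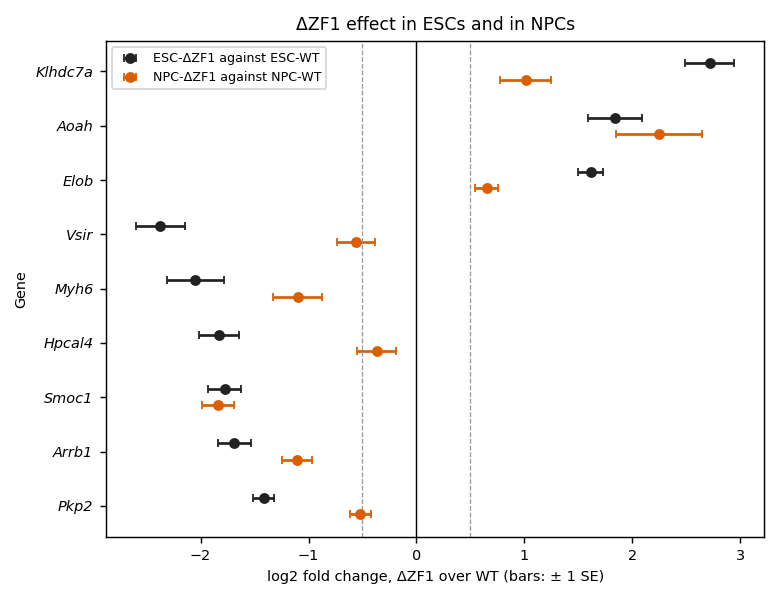
Log2 fold change of ΔZF1 over WT for each of the 9 genes in ESCs (black, the contrast that chose the genes) and in NPCs (orange), with bars of 1 SE and dashed lines at 0.5 in either direction. All 9 pairs share a sign, Smoc1 and Aoah have NPC values at least as large as the ESC values, and Hpcal4 has the NPC value closest to 0.

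NPC-WT and NPC-ΔZF1 also differed in markers of other cell types. The summed level of 12 extraembryonic endoderm markers was 195 to 227 CPM in NPC-WT, with Apoa1 at 0, and 1884 to 1968 in NPC-ΔZF1, with none at 0, and all 11 of the 12 that were tested were called higher. The summed level of 10 surface ectoderm and trophoblast markers was 3942 to 5301 CPM in NPC-WT and 1874 to 1964 in NPC-ΔZF1, with 5 of 9 tested called lower and 1 higher. Their part in the changes of the 9 genes was not tested. In ESCs the endoderm sum was 31.9 to 76.1 CPM in ESC-WT and 31.1 to 51.6 in ESC-ΔZF1, and the surface ectoderm sum 852 to 933 and 851 to 857, so that both sums overlapped. Other marker sums did not overlap between these lines. The mesoderm sum was 19.41 to 19.96 CPM in ESC-WT and 28.7 to 33.6 in ESC-ΔZF1. For pluripotency it was 6657 to 6675 and 6964 to 7344, and for neural progenitors 44.2 to 54.3 and 39.88 to 39.92. The part of these markers in the choice of the 9 genes was not tested.

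The level of each gene in parental E14 cells was set beside the rescue lines, with no test because the tables were normalized separately. In ESCs, the E14 mean was nearer to ESC-ΔZF1 than to ESC-WT, by ratio, in 8 of 9 genes, and nearer to ESC-WT in Aoah. Of 13203 genes tested in both tables, 54.8% were nearer to ESC-ΔZF1, as were 62.2% of 193 genes called higher in ESC-ΔZF1 and 64.4% of 374 called lower. All 6 genes that were lower in ESC-ΔZF1 were higher in ESC-WT than in E14 ESCs, and they were still above E14 ESCs in ESC-ΔZF1. Over the 374 genes called lower, the median log2 ratio to E14 ESCs was 0.64 in ESC-WT and -0.11 in ESC-ΔZF1. Pkp2 in ESC-WT was 4.24 times its E14 level and in ESC-ΔZF1 1.59 times. For Arrb1 these ratios were 5.54 and 1.71, and for Smoc1 7.21 and 2.11. Vsir, Myh6 and Hpcal4 were at 2.29 to 5.52 CPM on average in ESC-ΔZF1 and at 0.301 to 0.705 in E14 ESCs, so their ratios rest on 4 to 9 E14 counts and are not given.

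Elob was the reverse case, with an ESC-WT level that was 0.180 times that of E14 ESCs and an ESC-ΔZF1 level that was 0.553 times. Klhdc7a was the only gene with E14 ESCs between ESC-WT (0.357 times) and ESC-ΔZF1 (2.40 times). In NPCs, the E14 mean was nearer to NPC-ΔZF1 in 9 of 9 genes, with ratios to E14 between 0.667 in Klhdc7a and 2.09 in Vsir, against 0.154 in Aoah to 3.93 in Smoc1 for NPC-WT. The share of all genes nearer to NPC-ΔZF1 was not computed, so this count has no background and is not read as particular to the 9. Myh6 in NPC-ΔZF1 was 0.994 times its E14 level. The counts of genes nearer to either line were the same on raw library totals. The rescue lines differ from E14 also in their degron, transgene, reporter, drugs and clone, and none of these can be told apart here.

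**Figure D3:**
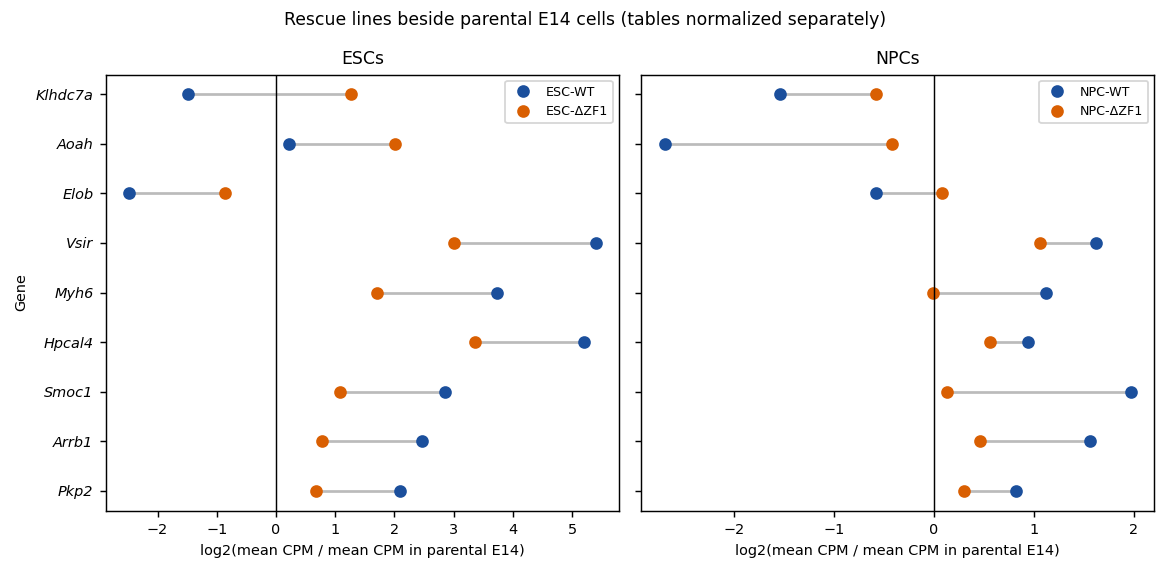
Mean level of each gene in WT rescue (blue) and ΔZF1 rescue (orange) as a log2 ratio to the mean in E14 cells of the same kind, in ESCs (left) and NPCs (right), where 0 is the E14 level and a line joins the pair. Orange points lie nearer to 0 than blue points for 8 of 9 genes in ESCs and 9 of 9 in NPCs, and the ESC points of Vsir, Myh6 and Hpcal4 rest on 4 to 9 E14 counts. In ESCs this held for 54.8% of all genes tested in both tables, and in NPCs the share over all genes was not computed.

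Differentiation of E14 ESCs to NPCs moved 5 of the 9 genes, all upward: Vsir (log2 fold change 3.76, SE 0.53, adjusted p = 1.48e-06), Myh6 (2.51, SE 0.55, adjusted p = 0.000503), Hpcal4 (2.36, SE 0.63, adjusted p = 0.00329), Arrb1 (1.49, SE 0.20, adjusted p = 9.74e-07) and Pkp2 (0.88, SE 0.11, adjusted p = 2.95e-07). Over all genes 16.5% were called higher and 16.3% lower. Vsir, Myh6 and Hpcal4 passed the low-count filter through NPC libraries: 8 or 9 of the 9 NPC libraries of the truncation series reached its level of 2.24 CPM, but 1 of the 9 ESC libraries for Vsir and 0 for Myh6 and Hpcal4, so these genes entered the test by being high in NPCs. They were also called with no filter (adjusted p = 5.11e-10 for Vsir, 3.39e-06 for Myh6 and 8.77e-05 for Hpcal4), and Hpcal4 was not tested when only the compared groups were fitted. These 5 are all among the 6 genes that were lower in ESC-ΔZF1. Of the 5, only Arrb1 and Pkp2 reached the filter level in all ESC and NPC libraries of the truncation series. The direction of Vsir, Myh6 and Hpcal4 follows from how they entered, so the count of 5 is not read against the share over all genes. The remaining gene, Smoc1, had 0.28 (SE 0.23, adjusted p = 0.342). Among the 374 genes called lower in ESC-ΔZF1 and tested in both tables, 29.1% were called higher in E14 NPCs, beside 16.3% of all 13203. Among the 193 genes called higher in ESC-ΔZF1 and tested in both tables, 36.8% were called lower in E14 NPCs and 18.7% higher. Over all 13203 genes, 16.3% were called lower. Of the 9 genes, none of those higher in ESC-ΔZF1 was called: Elob had -0.48 (SE 0.14, adjusted p = 0.00577), under the fold cutoff, Aoah -0.49 (SE 0.49, adjusted p = 0.438) and Klhdc7a -0.35 (SE 0.25, adjusted p = 0.262). Where at least 10 counts in every library were required, only Pkp2 and Arrb1 of the 5 were tested and both were called. The summed level of the 12 extraembryonic endoderm markers was 13.6 to 16.4 CPM in E14 ESCs and 535 to 698 in E14 NPCs, and its part in these changes was not tested.

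The rescue lines changed in another way on differentiation, given as a description because the ESC libraries chose the genes. In the WT rescue line, NPC-WT over ESC-WT, Aoah had a log2 fold change of -3.30 (SE 0.40), Hpcal4 -1.49 (SE 0.18), Smoc1 -0.66 (SE 0.14), Elob 1.42 (SE 0.12) and Arrb1 0.56 (SE 0.14), and the values of Pkp2, Klhdc7a, Myh6 and Vsir lay between -0.55 and 0.16. In the ΔZF1 line, Vsir had 1.98 (SE 0.22), Arrb1 1.14 (SE 0.15), Myh6 0.78 (SE 0.26) and Pkp2 0.54 (SE 0.10). These had the sign of their E14 values, as did Aoah at -2.89 (SE 0.24) and Klhdc7a at -2.25 (SE 0.19), which were not called in E14. Smoc1 at -0.72 (SE 0.16) and Elob at 0.45 (SE 0.11) had the sign opposite to E14. Hpcal4 was at -0.02 (SE 0.19) in the ΔZF1 line, where E14 had 2.36 and the WT rescue line -1.49.

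In Podxl pA, none of the 9 genes was called against E14 by edgeR's quasi-likelihood test, in ESCs or in NPCs, where 0.339% and 0.55% of all genes were. DESeq2 also called 0 in both. At an unadjusted p-value no higher than 0.05, edgeR had 1 gene in ESCs and 1 in NPCs, and DESeq2 had 1 and 0. In edgeR these were Vsir in ESCs (log2 fold change 1.79, SE 0.71, adjusted p = 0.409) and Arrb1 in NPCs (0.34, SE 0.16, adjusted p = 0.480). Vsir had 1.16, 0.625 and 2.58 CPM in ESC Podxl pA, from 14 counts in all, and every one of these libraries was above those of E14 ESCs. The range of the 9 log2 fold changes was -0.41 to 1.79 in ESCs and -0.07 to 0.62 in NPCs. In ESCs the SE was 0.12 for Pkp2 but 0.71 to 0.77 for Vsir, Myh6 and Hpcal4, so only large changes of the latter could have been detected at this depth. The 12 extraembryonic endoderm markers summed to 1140 to 1201 CPM in NPC Podxl pA, against 535 to 698 in E14 NPCs. Of the 9 of these markers that were tested, 4 were called higher and 0 lower. The 10 neural progenitor markers summed to 98.6 to 104.5 CPM, against 123 to 131. The part of these markers in the values of the 9 genes was not tested.

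In Grb10 pA, 4 of the 9 genes were called in ESCs, where 4.51% of all genes were higher and 4.58% lower. Klhdc7a was higher by 1.73 (SE 0.20, adjusted p = 9.23e-07), Arrb1 by 0.76 (SE 0.22, adjusted p = 0.0208) and Smoc1 by 0.68 (SE 0.22, adjusted p = 0.0382), while Elob was lower (-0.55, SE 0.14, adjusted p = 0.00774). Klhdc7a moved in the direction it had in ESC-ΔZF1, and the other genes, Arrb1, Smoc1 and Elob, against it. ESC Grb10 pA had 7.79, 8.63 and 9.95 CPM of Arrb1, all above E14, and 7.57, 8.97 and 7.11 of Smoc1, likewise all above E14. For Elob it had 67.9, 67.0 and 85.1 CPM, all below E14. Pkp2 was higher by 0.41 (SE 0.11, adjusted p = 0.0155), under the fold cutoff, and passed it without E14 replicate 2 (0.51, adjusted p = 0.0133). In ESC Grb10 pA the summed level of the 10 neural progenitor markers was 18.4 to 26.9 CPM, with 3 at 0, below the 31.5 to 37.3 of E14 ESCs, and that of the 10 surface ectoderm and trophoblast markers 768 to 770.1 against 1034 to 1119. Pluripotency markers summed to 6254 to 6531 CPM against 5466 to 5574, and the part of these markers was not tested.

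In Grb10 pA NPCs, Klhdc7a (0.64, SE 0.23, adjusted p = 0.0371) and Smoc1 (0.59, SE 0.20, adjusted p = 0.0283) were called, where 7.9% of all genes were called higher and 8.64% lower. Klhdc7a was at 8.55, 8.22 and 7.87 CPM and Smoc1 at 8.55, 8.72 and 9.40, in each case above all E14 NPC libraries. DESeq2 called neither (adjusted p = 0.0646 and 0.0918). The summed level of the 10 neural progenitor markers was 43.5 to 53.8 CPM in NPC Grb10 pA, with Hes5 and Fabp7 at 0, below the 123 to 131 of E14 NPCs. That of the 8 mesoderm markers was 71.8 to 88.7 CPM against 38.5 to 45.2 in E14 NPCs, and that of the 10 surface ectoderm and trophoblast markers 837 to 857, with Krt14 at 0, against 1069 to 1118, with Krt5 at 0. The part of these markers in the values of the 9 genes was not tested. Only Klhdc7a in ESCs was called under each alternative. The effects in NPCs and ESCs were compared as an interaction, which was called for 2 of the 9, where 5.9% of all genes were called. The NPC minus ESC difference of Elob was 0.84 (SE 0.19, adjusted p = 0.0093), from -0.55 in ESCs and 0.29 in NPCs, and that of Klhdc7a -1.09 (SE 0.31, adjusted p = 0.0328), from 1.73 and 0.64. In ESC Grb10 pA, the level of Ctcf itself was 134 to 157 CPM, below the 229 to 233 of E14 ESCs, and its part in these values was not tested.

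The calls of Grb10 pA ESCs were in part lost on leaving out a library or changing a setting. Elob was lost without E14 replicate 1 (adjusted p = 0.0867) and without Grb10 pA replicate 1 (-0.49). Arrb1 was lost without E14 replicate 2 (adjusted p = 0.121), without Grb10 pA replicate 3 (adjusted p = 0.0962), without the low-count filter (adjusted p = 0.0712) and with only the compared groups (adjusted p = 0.0716). Smoc1 was lost with DESeq2 (adjusted p = 0.108), without the filter (adjusted p = 0.209), with only the compared groups (adjusted p = 0.112) and without any one of the 6 libraries (adjusted p = 0.0516 to 0.165).

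**Figure D4:**
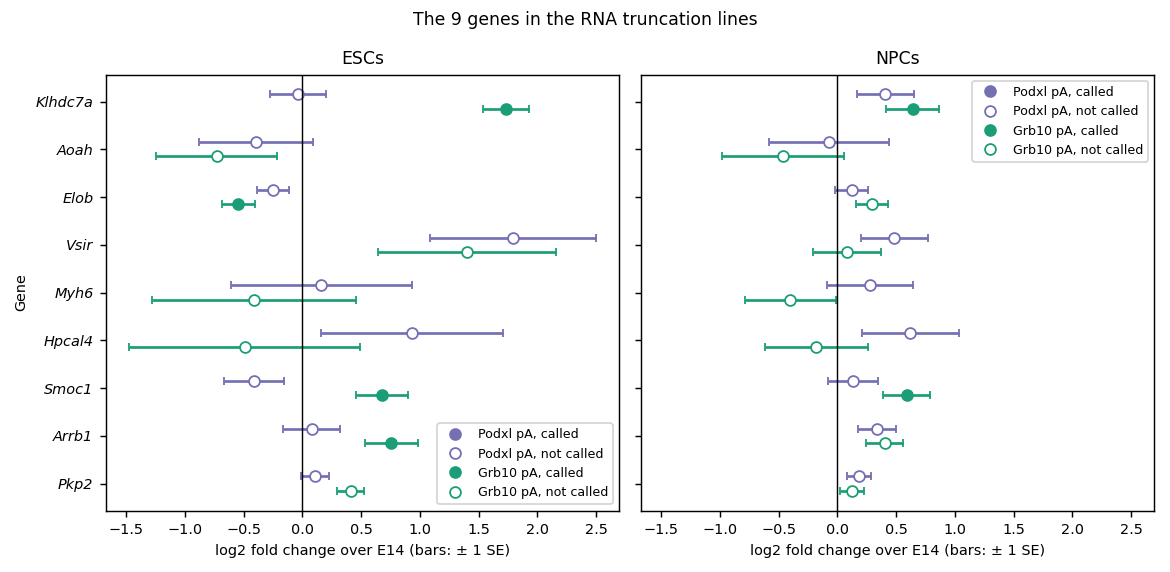
Log2 fold change over E14 of each gene in Podxl pA (purple) and Grb10 pA (green) in ESCs (left) and NPCs (right), with bars of 1 SE, filled where called. Only Grb10 pA has filled points, for Klhdc7a, Elob, Smoc1 and Arrb1 in ESCs and Klhdc7a and Smoc1 in NPCs, and the widest bars belong to Vsir, Myh6 and Hpcal4 in ESCs.

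Genes beside the 9 on the chromosome were past the cutoffs about as often as all genes. Distances were taken between the lowest annotated coordinates of 2 genes, so genes that overlap, such as Cdh23 and Vsir, have one too. The 3 nearest tested genes on each side, 54 in all, were 1.45 to 1202 kb away by this measure. Of these, 2 were past the cutoffs in ESC-ΔZF1 (3.70%, beside 3.61% of all genes), and neither had the sign of the member it neighbours. These were Gm19972, 462 kb from Vsir (log2 fold change 1.92, SE 0.45), and Zfhx2, 118 kb from Myh6 (0.64, SE 0.15). In NPC-ΔZF1, 9 of the 54 were called, or 16.7% beside 17.6% of all genes, of which 6 had the sign of their member. Near Elob this was Prss41, 12.05 kb away (2.45, SE 0.54, adjusted p = 0.0119). The other 5 were lower: Neu3 near Arrb1 (-0.69, adjusted p = 0.0437), Psap near Vsir (-0.75, adjusted p = 0.00544), Efs and Ngdn near Myh6 (-0.78 and -0.57, adjusted p = 0.0211 and 0.0274) and Oxct2b near Hpcal4 (-1.03, adjusted p = 0.0343). Gm19972 was higher again in NPCs (0.99, adjusted p = 0.0254), against Vsir. Epdr1, 1202 kb from Aoah, was lower (-3.13, adjusted p = 0.000178), and Arhgef10l, 554 kb from Klhdc7a, was lower (-0.94, adjusted p = 0.0268), both against their member. Myh7, next to Myh6, had -1.80 (SE 0.44) in ESCs and -0.82 (SE 0.35, adjusted p = 0.122) in NPCs.

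**Figure D5:**
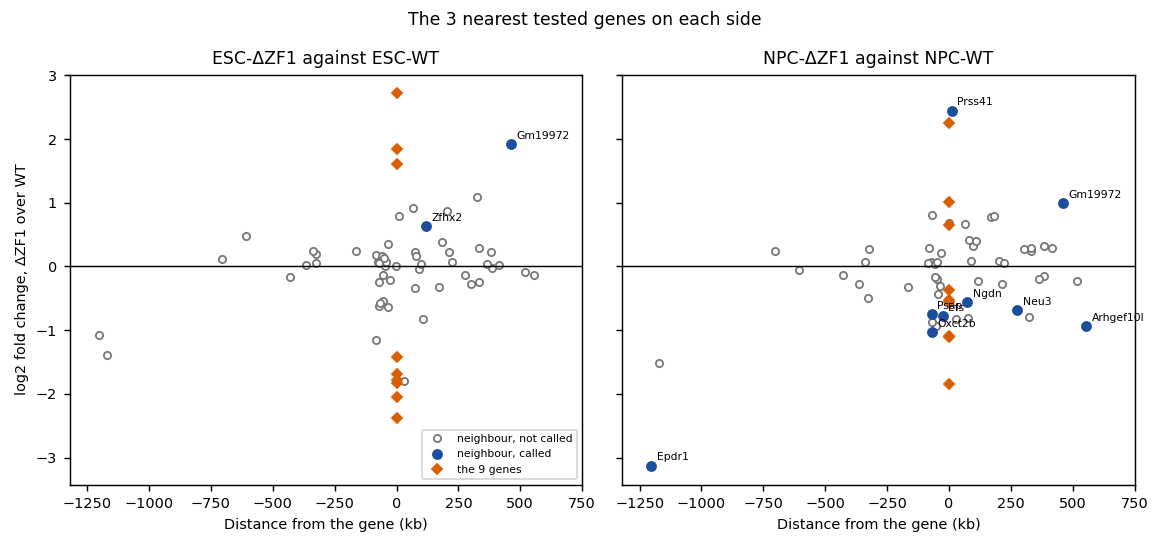
Log2 fold change of ΔZF1 over WT of the 3 nearest tested genes on each side of the 9 genes (circles, filled where called). It is plotted against the distance in kb between lowest annotated coordinates, with the 9 genes themselves as diamonds at 0, in ESCs (left) and NPCs (right). In ESCs 2 of 54 neighbours are filled and in NPCs 9 of 54, while the diamonds of the ESC panel lie at 1.42 or more from 0.

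Partners and relatives of the 9 genes, 100 genes in 9 lists of which 77 were tested, were called in a minority. In NPC-ΔZF1, 6 were higher and 13 lower, which is 24.7% beside 17.6% of all genes, and in ESC-ΔZF1, 2 were higher and 2 lower (5.19% beside 3.61%). In the arrestin list, 1 of 10 tested was higher and 3 lower. Arrb2, the paralog of Arrb1, was lower in NPC-ΔZF1 (-1.09, SE 0.13, adjusted p = 0.000705), and so were the receptor kinase Grk3 (-0.78, SE 0.17, adjusted p = 0.0109) and Arrdc1 (-0.73, SE 0.17, adjusted p = 0.0145), while Arrdc3 was higher. Arrb2 in ESCs had -0.70 (SE 0.14). Of the B7 family and checkpoint receptors, 4 were tested and 1, Cd276, was lower (-0.73, SE 0.12, adjusted p = 0.00274). Of 8 desmosome genes tested, Pkp3 (-1.41, SE 0.18, adjusted p = 0.000815) and Dsc3 (-0.96, SE 0.29, adjusted p = 0.0406), a plaque protein and a cadherin, were lower in NPC-ΔZF1 like Pkp2. In ESC-ΔZF1, where Pkp2 fell more, 1 of these 8 was past the cutoffs as higher and 0 as lower. Their median log2 fold change there was 0.11.

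Of 12 sarcomere genes and regulators tested, the atrial light chain Myl4 (-2.47, SE 0.28, adjusted p = 0.000531) and cardiac actin Actc1 (-1.15, SE 0.28, adjusted p = 0.0172) were lower in NPC-ΔZF1, as was 1 more gene of the list, and Gata4, which also marks extraembryonic endoderm, was higher (2.45, SE 0.22, adjusted p = 0.000146), and none of the 12 was past the cutoffs in ESCs. Of 7 genes of lipopolysaccharide recognition tested, 3 were lower in NPC-ΔZF1 and none higher, against the rise of Aoah: Lbp (-1.43, SE 0.45, adjusted p = 0.0491), Ticam1 (-0.79, SE 0.15, adjusted p = 0.00496) and Myd88 (-0.74, SE 0.18, adjusted p = 0.0156). Of 9 SPARC family members and BMP antagonists tested, Sparcl1 (2.57, SE 0.63, adjusted p = 0.0179) and Fstl1 (0.70, SE 0.10, adjusted p = 0.00122) were higher, against the fall of Smoc1. Of 12 genes of elongin and cullin ligases, Rbx1 was higher (0.66, SE 0.13, adjusted p = 0.00646) and Fem1b lower (-0.52, SE 0.12, adjusted p = 0.0163), and none was past the cutoffs in ESCs, where Elob had changed. Of 7 neuronal calcium sensors Ncald was higher (1.60, SE 0.45, adjusted p = 0.033), and of 8 other kelch domain genes none was called in either cell type.

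Per kb of exon, Elob led the 9 genes in E14 ESCs at 76.1 CPM per kb and Pkp2 came next at 7.56, while in ESC-WT Pkp2 led at 32.1 and Elob was at 13.7. ESC-ΔZF1 had the E14 order again at the top, with Elob at 42.1 and Pkp2 at 12.01 CPM per kb, and Smoc1 was next in all of these groups. The lowest of the 9 was Vsir in E14 ESCs (0.06 CPM per kb), Klhdc7a in ESC-WT (0.314) and Myh6 in ESC-ΔZF1 (0.341).

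Over the 18 libraries of the truncation series, the genes most like each of the 9 were found by Pearson's r of log2 CPM among 9279 genes whose mean was 50 normalized counts or more. The points share libraries and the split of ESCs from NPCs, so these values are a description. Arrb1 was most like Notch3 (r = 0.970) and Kif21a (0.969), Pkp2 like Ubash3b (0.959), Vsir like Hunk (0.957) and Syt13 (0.944), Myh6 like Cachd1 (0.940) and Mpdz (0.938) and Hpcal4 like Ankrd13b (0.910) and Nfatc2 (0.906). For Klhdc7a they were Igsf3 (0.912) and Sipa1l1 (0.902), for Smoc1 Fnbp4 (0.902) and Itpr1 (0.900) and for Elob Pcbp1 (0.895) and Rps27 (0.884). Aoah had the weakest likeness, with Phlpp1 at 0.819 and Fam193a at 0.686.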

How the data were processed

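The authors sequenced rRNA-depleted RNA, aligned the reads to mm10 with STAR, counted them per gene with featureCounts without regard to strand through the sns pipeline, and deposited whole-number counts with no normalization; the annotation is not given in the sources used here. Of the deposited tables, 3 columns match no sample and were not used. The 9 genes and the lists of partners and markers were chosen with earlier results of these data known. Groups followed the labels. The study describes the RNA-seq libraries as biological replicates, and whether they came from separate cultures is not given in the sources used here, so p-values measure the spread between libraries of a line.

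Both tables were analysed separately in R 4.3.3 by edgeR 4.0.16. After filterByExpr, 16641 and 13268 genes were left, and the models had TMM factors, a mean for each group, no term for replicates and the quasi-likelihood F test. P-values were adjusted over all genes tested by the Benjamini-Hochberg method, and genes were called at 0.05 and a log2 fold change of 0.5 in either direction. The SE is the size of the log2 fold change divided by the square root of F. DESeq2 1.42.0, RLE normalization, TMM without chromosome 11 or 8, no filter, a minimum of 10 counts in each library, a fit of only the groups compared, a replicate block and leaving out each library were alternatives. The fit was tested on simulated data. TMM factors were 0.963 to 1.02 and 0.895 to 1.03. Of 55291 listed symbols, 53180 were found once in GENCODE M21. Named beside the 9 genes were, from each list, at most the 3 largest changes called in NPC-ΔZF1 or in E14 NPCs, the called neighbours, and the 2 most alike genes. Myh7, Elobl, Cdh23, Ctcf, and the values of list genes in ESC-ΔZF1 were added after their values were seen.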

Additional observations from a re-analysis of the deposited data

Results flagged for a closer look

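The log2 fold change of the Grb10 pA line over E14 differed between NPCs and ESCs for 2 of the 9 genes by the interaction term of edgeR's quasi-likelihood test. For Elob the log2 fold change over E14 was -0.55 (SE 0.14) in ESCs and 0.29 (SE 0.14) in NPCs, and the difference, NPC minus ESC, was 0.84 (SE 0.19, adjusted p = 0.0093). All 3 ESC Grb10 pA libraries were below the E14 ESC libraries, while those of NPC Grb10 pA overlapped E14 NPCs. For Klhdc7a the values were 1.73 (SE 0.20) in ESCs and 0.64 (SE 0.23) in NPCs, and the difference was -1.09 (SE 0.31, adjusted p = 0.0328). Both ESC and NPC libraries of Grb10 pA were above E14 for Klhdc7a. For the other 7 genes the interaction had adjusted p-values between 0.277 and 0.994. In Podxl pA the interaction was called for none of the 9, with 0 at an unadjusted p-value of at most 0.05.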

How the results depend on the processing

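Few counts, clonal lines and 2 libraries per rescue group limit these results. No alternative turned the sign of a called gene. In NPC-ΔZF1, 7 genes of the 9 were called, 4 when only the compared groups were fitted and 3 to 9 on leaving out a library. In E14 NPCs 2 were called with at least 10 counts per library, the only ones tested among the 5. In ESC Grb10 pA, 4 were called, 2 with no filter, 2 with only the compared groups and 2 to 3 on leaving out a library. In NPC Grb10 pA, 2 were called, 1 with at least 10 counts, 0 with DESeq2, 0 with no filter and 0 to 1 on leaving out a library. The cause was not tested. Over all genes, ESC-ΔZF1 had 601 calls, 1088 with no filter, 1601 with only the compared groups and 8 to 21 on leaving out a library, and NPC-ΔZF1 2936, 1222 with only the compared groups and 943 (without NPC-ΔZF1 replicate 1) to 5870 (without NPC-WT replicate 1). E14 NPCs had 4351 calls and 2683 with at least 10 counts. ESC Podxl pA had 45, 94 with no filter, 22 with only the compared groups and 12 to 38 on leaving out a library, and NPC Podxl pA 73, 45 with at least 10 counts, 133 with only the compared groups and 44 to 60. On leaving out a library, Myh6 in ESC Podxl pA ran from -1.94 (without Podxl pA replicate 2) to 0.75 and Hpcal4 in NPC Grb10 pA from -0.73 to 0.56 (without E14 replicate 1), both uncalled and with a change of sign. Same-numbered libraries did not deviate together, with r of 0.025 in ESC-ΔZF1 against ESC-WT and -0.015 in NPC-ΔZF1 against NPC-WT. With 2 libraries per rescue group, each of these contrasts has only a single independent value. A batch shared by number therefore cannot be told from it. The replicate block gave 409 calls in ESC-ΔZF1, where 601 were called without it, and changed no call of the 9 genes.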

Other observations

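In E14 cells the partners and relatives of the 9 genes changed with differentiation, with 13 of 56 tested higher and 8 lower in NPCs, or 37.5% beside 32.8% of all genes. Among desmosome genes, the cadherin Dsc2 (log2 fold change 1.70, SE 0.19, adjusted p = 3.17e-08) and Perp (1.27, SE 0.14, adjusted p = 2.5e-08) were higher, as Pkp2 was, and the cadherin Dsg2 was lower (-0.82, SE 0.09, adjusted p = 1.47e-08). Among the 6 sarcomere genes and regulators tested, 3 were lower and 2 higher. Myl7, an atrial light chain, was lower (-3.07, SE 0.38, adjusted p = 2.1e-07), as was cardiac troponin I, Tnni3 (-2.34, SE 0.53, adjusted p = 0.000676), where Myh6 was higher, and the transcription factor Gata4 was higher (2.64, SE 0.17, adjusted p = 9.72e-13). Relatives of Hpcal4 were higher in 2 of 5 tested, Kcnip3 (1.54, SE 0.28, adjusted p = 6.54e-05) and Hpcal1 (0.84, SE 0.15, adjusted p = 2.7e-05). Follistatin-like 1, Fstl1, of the BMP antagonist list was higher (1.91, SE 0.12, adjusted p = 7.15e-13), while Smoc1 had 0.28 (SE 0.23, adjusted p = 0.342).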
